A study of Rattus norvegicus with 20 samples.

Results

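The CK-19-positive preneoplastic nodules of rat liver described here were set against CK-19-negative nodules, with 5 arrays of each, 10 of the 20 arrays in the series. Arrays were assigned by their labels and not by any expression value, and 6102 genes were compared. The nodules came from male Fischer rats carried through the Resistant-Hepatocyte (R-H) protocol, which began with 1 dose of the liver carcinogen diethylnitrosamine (DENA). After 2 weeks a diet with 2-acetylaminofluorene (2-AAF) was given for 2 weeks. Partial hepatectomy (PH) was done in the presence of 2-AAF, and basal diet came after. Both kinds of nodule had therefore received DENA, 2-AAF and PH, and both were cut out by laser microdissection 10 weeks after DENA and 7 weeks after PH. A nodule was CK-19-positive when the stained area took up at least 5% of it and CK-19-negative when no stained cell was found. Early preneoplastic foci (EPFs, 5 arrays of pooled foci collected 7 days after PH) and control liver (5 arrays of normal liver) are given below as levels only. No source used here gives the age of the rats. RNA came from 4 to 5 animals, and which rat each nodule came from is not labelled, so nodules of 1 rat may lie on several arrays, and the p-values may then be too small.

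CK-19, the product of Krt19, is a keratin of bile duct cells and of oval cells, the progenitor-like cells of rodent liver, and is not made by normal adult hepatocytes. Preneoplastic hepatocytes of chemical models are known for a resistance pattern, with conjugating enzymes and efflux pumps high and cytochrome P450 enzymes low. Many of the conjugating enzymes are targets of NRF2, a transcription factor that KEAP1 holds in the cytoplasm and that binds antioxidant response elements in a pair with a small MAF protein. Male rat liver also carries a set of P450 enzymes and secreted proteins that depends on the pulsed release of growth hormone in males.

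Values are normalized signals, that is, the linear intensities of the array's beads after the authors' quantile normalization. They ranged between 95.5 and 44882.6 over all probes, with a median of 157, and 7370 to 7383 probes exceeded 200 on each array. Nodule numbers are names only and pair nothing between the groups. The stain was the basis of the groups, so Krt19 served only to check the labels, and it followed them. Its signal was 7686, 3549, 3507, 2790 and 2738 in CK-19-positive nodules 1 to 5, against 197, 1181, 578, 200 and 516 in CK-19-negative nodules 1 to 5, with no overlap. The lowest positive nodule stood above the highest negative nodule, although negative nodule 2, in which no stained cell was found, had several times the Krt19 signal of control liver (224 ± 17.7, SD, n = 5). Gstp1, the placental glutathione S-transferase that marks rat preneoplastic lesions, was 41256 to 43418 in CK-19-positive nodules, 19371 to 26758 in CK-19-negative nodules and 261 to 449 in control liver, so both kinds of nodule carried it. Its 1.89-fold difference (log2 0.91 ± 0.11, SE, limma adjusted p = 2.487e-06) stayed under the 2-fold threshold, and in the positive nodules its signal lay close to the top of the scale.

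The BeadChip and the groups ran almost together. Of the 4 BeadChips, numbered here 1 to 4, BeadChip 1 held all 5 CK-19-positive nodules together with CK-19-negative nodule 5 and 2 control livers, and BeadChip 2 held CK-19-negative nodules 1 to 4. Negative nodule 5, the last value of each negative series below, is thus the only CK-19-negative nodule that shared a BeadChip with the positive ones. The 57 genes named by rule kept their sign in a fit with BeadChip as a fixed block, where 47 of them passed both thresholds. They also kept it within BeadChip 1 alone. Most of them did not overlap between the nodule groups, and for those the sign within BeadChip 1 was fixed beforehand, so it is no check on the BeadChip.

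A gene was called when limma's adjusted p (Benjamini-Hochberg, over all 6102 genes) was under 0.05 and the groups differed at least 2-fold. By this rule 146 genes (2.39%) rose and 146 genes (2.39%) fell in CK-19-positive nodules, 292 (4.79%) in all. By adjusted p alone, 932 genes were higher and 829 lower. The 5 positive and 5 negative nodules did not overlap in 138 of the genes that rose and in 120 of those that fell, beside 18.9% of all genes tested. Changes of at least 4-fold were found in 24 genes that rose and in 22 that fell, and changes of at least 8-fold in 6 and 1. The log2 difference had a median of -0.004 over all genes.

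The CK-19-positive nodules held the highest median of the genes that rose and the lowest of those that fell. The genes that rose had a median signal of 1580 in CK-19-positive nodules, against 554 in CK-19-negative nodules, beside 901 in EPFs and 355 in control liver. The genes that fell had a median of 1404 in CK-19-positive nodules, against 3571 in CK-19-negative nodules, beside 1679 in EPFs and 4636 in control liver. In both sets the EPF median lay on the CK-19-positive side of the CK-19-negative median and the control median beyond the CK-19-negative one. These levels were not tested, since the genes were picked on the nodules. Within the positive group, nodules 3 and 4 were nearest to the mean of the negative nodules, with a root mean square log2 distance over all genes of 0.414 and 0.419, against 0.573, 0.605 and 0.509 in nodules 1, 2 and 5.

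**Figure D1:**
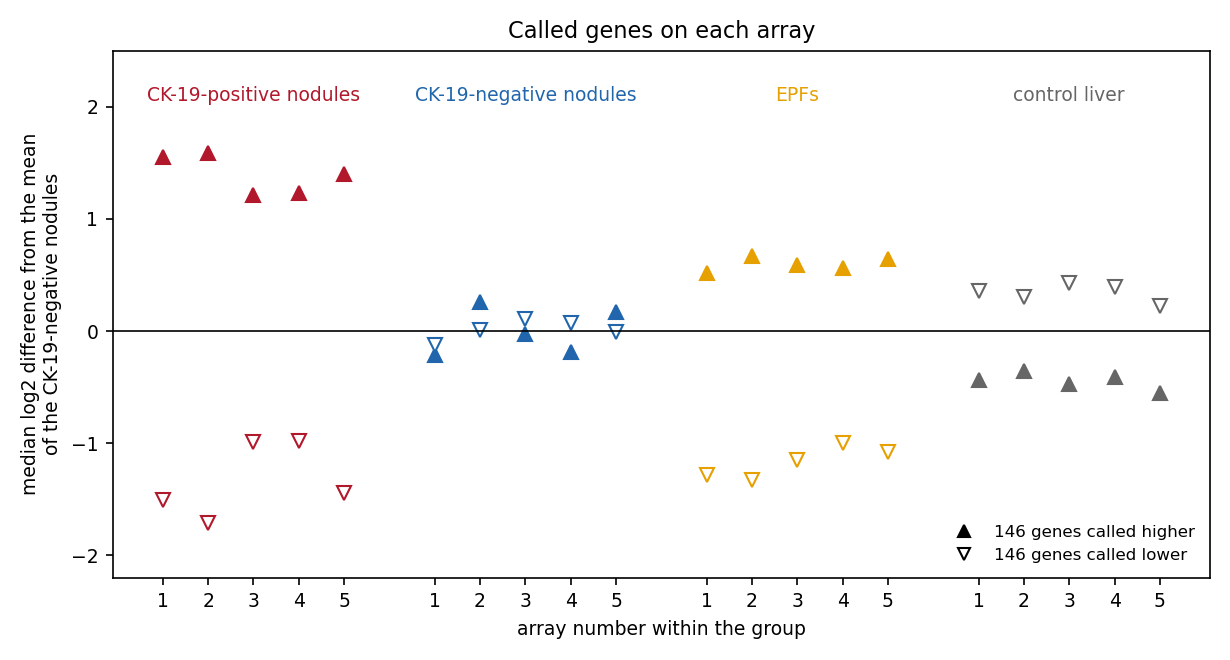
The median log2 difference of the called genes from the mean of the CK-19-negative nodules (vertical axis, log2) is plotted for every array of the 4 groups, separately for the 146 genes that rose and the 146 that fell. The genes that rose lie between 1.21 and 1.59 in the CK-19-positive nodules, and nodules 3 and 4 are the least displaced of the positive nodules in both directions.

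The largest rise was that of Nefl, the light neurofilament chain, an intermediate filament protein of neurons. Its signal was 9122, 6213, 2894, 2054 and 1727 in the CK-19-positive nodules, against 147, 407, 195, 139 and 201 in the CK-19-negative nodules (log2 difference 4.15 ± 0.39, SE, limma adjusted p = 8.221e-08). Every positive nodule stood above every negative one, and 3 of the 5 negative nodules were under 200, the level below which a signal was not read as expression. Defb1, an antimicrobial beta-defensin of epithelia, was 9789, 8089, 8482, 10391 and 12139 in CK-19-positive nodules and 315, 1168, 801, 153 and 1453 in CK-19-negative nodules (log2 4.06 ± 0.40, adjusted p = 1.514e-07). It was nearly even among the positive nodules and spread over almost a decade among the negative ones, with the lowest values in negative nodules 1 and 4. Abcb1b, the rodent P-glycoprotein that pumps drugs out of cells, was again lowest in negative nodules 1 and 4. Its signal was 5231, 6859, 5062, 4427 and 5709 in CK-19-positive nodules and 141, 1309, 525, 217 and 849 in CK-19-negative nodules (12.1-fold, adjusted p = 5.493e-07). In EPFs it averaged 9764 ± 1894 and in control liver 198.9 ± 49.1 (SD, n = 5 each), so the positive nodules lay between EPFs and the rest.

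Cyp2c12, a P450 that hydroxylates steroid sulfates in the female rat liver, also rose. It was 14120, 14478, 9344, 13405 and 15967 in CK-19-positive nodules, against 773, 3999, 2268, 724 and 2826 in CK-19-negative nodules (7.78-fold, log2 2.96 ± 0.36, adjusted p = 2.208e-06), and 10079 to 15771 in EPFs. Ctse, the aspartic protease cathepsin E, was 2911, 3073, 2277, 1905 and 1187 in CK-19-positive nodules, against 146, 539, 252, 224 and 306 in CK-19-negative nodules (log2 3.01 ± 0.25, adjusted p = 2.048e-08). Unlike Cyp2c12, Ctse was low in EPFs, at 212 to 283, which is close to control liver at 197 to 241. Pla2g7, which inactivates platelet-activating factor, was 4263, 761, 982, 1168 and 488 in CK-19-positive nodules and under 200 in all 5 CK-19-negative nodules, which makes it at least 5.63-fold higher (log2 2.78, adjusted p = 1.579e-06). Positive nodule 1 stood far above the other 4 for this gene. The other called genes under 200 in every CK-19-negative nodule were Rab7b, a late endosome GTPase (at least 2.78-fold higher), Clic5, a chloride channel family member (at least 2.00-fold), Hrk, a BH3-only death protein (at least 1.94-fold), and Ddr1, a collagen receptor (at least 1.68-fold).

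The other rises among the 12 largest were those of Akr1b8 and Akr1c19 (aldo-keto reductases), S100a11 (a calcium-binding S100 protein), Ctrc (the pancreatic protease chymotrypsin C) and Tceal9. Ctrc was 490 to 2098 in CK-19-positive nodules and 147 to 236 in CK-19-negative nodules, and Cpa1, another pancreatic protease, was 372 to 1492 and 163 to 248 (log2 2.44 and 2.06). Other digestive enzymes went the other way. Amy1, an amylase, fell to 2670 to 4596 in CK-19-positive nodules, against 6823 to 12900 in CK-19-negative nodules. Cela1, an elastase, fell to 219 to 462, against 300 to 1200, and its groups overlapped.

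**Figure D2:**
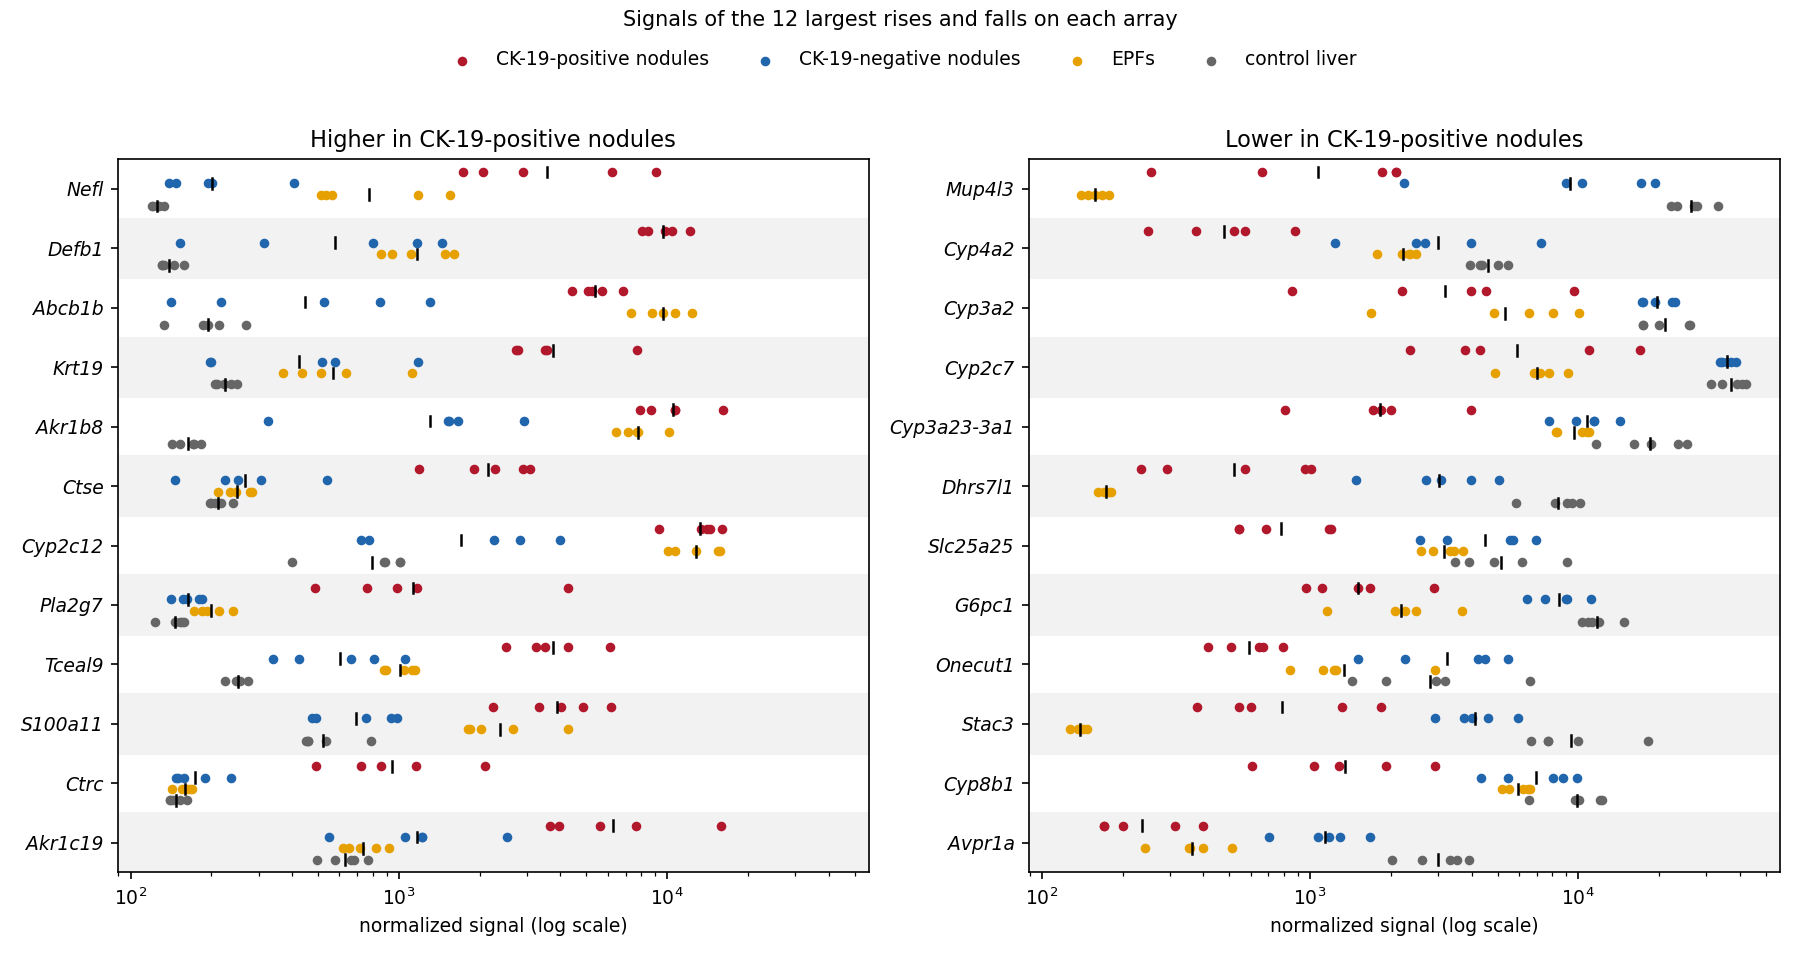
Normalized signals (horizontal axis, log scale) of the 12 genes with the largest rises and the 12 with the largest falls are plotted, with 1 point for each of the 5 arrays of a group and a tick at the mean of the log2 signals. Pla2g7 and Ctrc are near the bottom of the scale in all groups but the CK-19-positive nodules, whereas Abcb1b and Akr1b8 are also high in EPFs.

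Of 38 NRF2 target genes tested, 15 rose and 1 fell, with a median log2 difference of 0.78. By adjusted p alone 27 were higher and 1 lower, beside 932 and 829 of all 6102 genes. The promoter sequences of 4 of the targets are shown because the antioxidant response element, the site that NRF2 and its MAF partner bind, can be read in them. Each line runs 5′ to 3′ on the strand of the gene, over 250 bases before and 50 bases after the annotated start (RefSeq, GRCr8), and the capitals mark the core TGACNNNGC or its reverse complement.
Gclm (chr2:213031885-213032184, plus strand): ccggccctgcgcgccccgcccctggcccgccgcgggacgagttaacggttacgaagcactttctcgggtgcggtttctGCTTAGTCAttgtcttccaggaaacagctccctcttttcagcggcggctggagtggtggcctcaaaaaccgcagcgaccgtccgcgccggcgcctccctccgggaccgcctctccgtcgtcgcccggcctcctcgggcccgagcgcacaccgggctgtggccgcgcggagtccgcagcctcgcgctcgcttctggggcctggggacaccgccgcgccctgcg
Gpx2 (chr6:101229984-101230283, minus strand): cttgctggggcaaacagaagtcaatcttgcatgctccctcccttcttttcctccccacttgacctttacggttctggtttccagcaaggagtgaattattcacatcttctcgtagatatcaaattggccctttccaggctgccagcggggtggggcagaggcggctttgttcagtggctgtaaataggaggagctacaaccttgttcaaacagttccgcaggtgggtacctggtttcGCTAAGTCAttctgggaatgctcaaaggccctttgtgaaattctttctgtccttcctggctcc
Gsta3 (chr9:31154739-31155038, plus strand): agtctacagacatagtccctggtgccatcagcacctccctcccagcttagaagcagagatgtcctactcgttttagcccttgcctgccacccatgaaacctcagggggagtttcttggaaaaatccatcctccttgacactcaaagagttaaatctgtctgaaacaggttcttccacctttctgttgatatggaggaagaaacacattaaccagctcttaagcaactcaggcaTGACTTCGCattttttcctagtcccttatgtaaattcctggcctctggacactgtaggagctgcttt
Gsta1 (chr9:31216483-31216782, minus strand): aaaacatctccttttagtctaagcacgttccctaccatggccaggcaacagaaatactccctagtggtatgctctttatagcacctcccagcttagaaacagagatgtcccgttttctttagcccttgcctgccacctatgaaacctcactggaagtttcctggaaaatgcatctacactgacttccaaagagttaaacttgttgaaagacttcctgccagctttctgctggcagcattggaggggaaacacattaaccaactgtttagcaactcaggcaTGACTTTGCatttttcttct

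The cores began at position -172 in Gclm, -13 in Gpx2, -17 in Gsta3 and 30 in Gsta1, counted along the printed strand with the first base of the transcript as 0. Ugdh, which makes UDP-glucuronic acid, was the only other one of the 13 targets that rose and had a promoter sequence in which the core was found, so that 5 of 13 (38.5%) held it. The core was in 34.4% of the promoters of NRF2 targets tested (11 of 32), in 15.3% of those of all genes tested (786 of 5124) and in 12.2% of all 27457 promoters. It was in 19.8% of the promoters of the genes that rose (23 of 116) and in 17.2% of those of the genes that fell (21 of 122). The AP-1 site TGANTCA, searched on both strands in the same way, was in 14.7% of the promoters of the genes that rose, 6.56% of those of the genes that fell and 4.86% of all tested. It can overlap an antioxidant response core, and it was found in 0 of the 13 promoters of NRF2 targets that rose. A match is a run of letters in a 300-base window and was not measured as a binding site.

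The targets with a printed promoter differed in level and in spread. Gclm, the modifier subunit of the enzyme that starts glutathione synthesis, was 27334, 25191, 20573, 17975 and 18672 in CK-19-positive nodules, against 4348, 9543, 6936, 4473 and 7738 in CK-19-negative nodules (log2 1.78 ± 0.22, adjusted p = 2.031e-06). Gpx2, a glutathione peroxidase of epithelia, was 4324, 6188, 3383, 3800 and 4375 in CK-19-positive nodules and 1059, 1161, 801, 1016 and 1491 in CK-19-negative nodules (log2 2.00 ± 0.16, adjusted p = 1.416e-08). Both genes left a wide gap between the groups. Gsta3, an alpha-class glutathione S-transferase, was 5666, 4413, 3950, 2698 and 3779 in CK-19-positive nodules, against 2195, 1853, 1732, 1471 and 1939 in CK-19-negative nodules (log2 1.13 ± 0.15, adjusted p = 5.45e-06), and 144 to 180 in control liver. Gsta1 was dim and overlapped, at 276 to 686 in CK-19-positive nodules and 121 to 326 in CK-19-negative nodules (log2 1.26 ± 0.33, adjusted p = 0.00522). The alpha-class transferases are near-identical copies of each other, so a probe may have read more than 1 of them.

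The other targets that rose cover the main branches of the pathway. In glutathione synthesis and reduction, Gclc, the catalytic partner of Gclm, had a log2 difference of 1.54, and Gsr, glutathione reductase, had 1.44. Txnrd1, thioredoxin reductase, had 1.27 and was 2170 to 3412 in CK-19-positive nodules, against 969 to 1205 in CK-19-negative nodules. Among the reductases of quinones and reactive carbonyls, Akr1b8 had the largest difference of the 15, at 10730, 16204, 10730, 8731 and 7941 in CK-19-positive nodules and 1667, 2932, 1543, 324 and 1521 in CK-19-negative nodules (log2 3.02, adjusted p = 1.211e-06). Nqo1, a quinone reductase, was 12260, 16356, 11025, 13665 and 13758 in CK-19-positive nodules and 4419, 5001, 3489, 3137 and 4581 in CK-19-negative nodules (log2 1.71 ± 0.17, adjusted p = 2.4e-07). Ptgr1, which reduces prostaglandins and alkenals, had a log2 difference of 1.96. Taldo1, a pentose phosphate enzyme that feeds NADPH supply, was even in both groups, at 19079 to 27214 in CK-19-positive nodules and 7476 to 10113 in CK-19-negative nodules (log2 1.36 ± 0.10, adjusted p = 5.066e-09). Ugt1a6, a glucuronosyltransferase, was 1255 to 3322 in CK-19-positive nodules and 230 to 1285 in CK-19-negative nodules, which overlapped (2.29-fold, adjusted p = 0.009828). Aldh1a1, an aldehyde and retinaldehyde dehydrogenase, had the smallest rise of the 15 (log2 1.03, adjusted p = 0.0004172). It was not called with BeadChip as a fixed block (log2 0.53, adjusted p = 0.2007), nor without negative nodule 3 or 4 or positive nodule 2 or 3, when its log2 difference was 0.96, 0.93, 0.99 and 0.99.

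Not all targets moved that way. Gstm7, a mu-class glutathione S-transferase, fell to 541, 414, 763, 737 and 654 in CK-19-positive nodules, against 1941, 1302, 1730, 1677 and 1123 in CK-19-negative nodules (log2 -1.33 ± 0.16, adjusted p = 2.011e-06), and it was 238 to 361 in EPFs. Hmox1, heme oxygenase, had a log2 difference of 0.67 (adjusted p = 0.02205) and was not called. The genes of the regulators were not called either, since 0 of 9 tested rose or fell. Nfe2l2, which encodes NRF2 itself, had a log2 difference of 0.55 (adjusted p = 0.01982), Mafg, a small MAF partner, 0.55 (adjusted p = 6.068e-05) and Keap1 -0.12 (adjusted p = 0.5748). The amount of NRF2 protein in the nucleus was not measured on these arrays. With BeadChip as a fixed block 15 of the targets were called higher, and within BeadChip 1 there were 18.

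**Figure D3:**
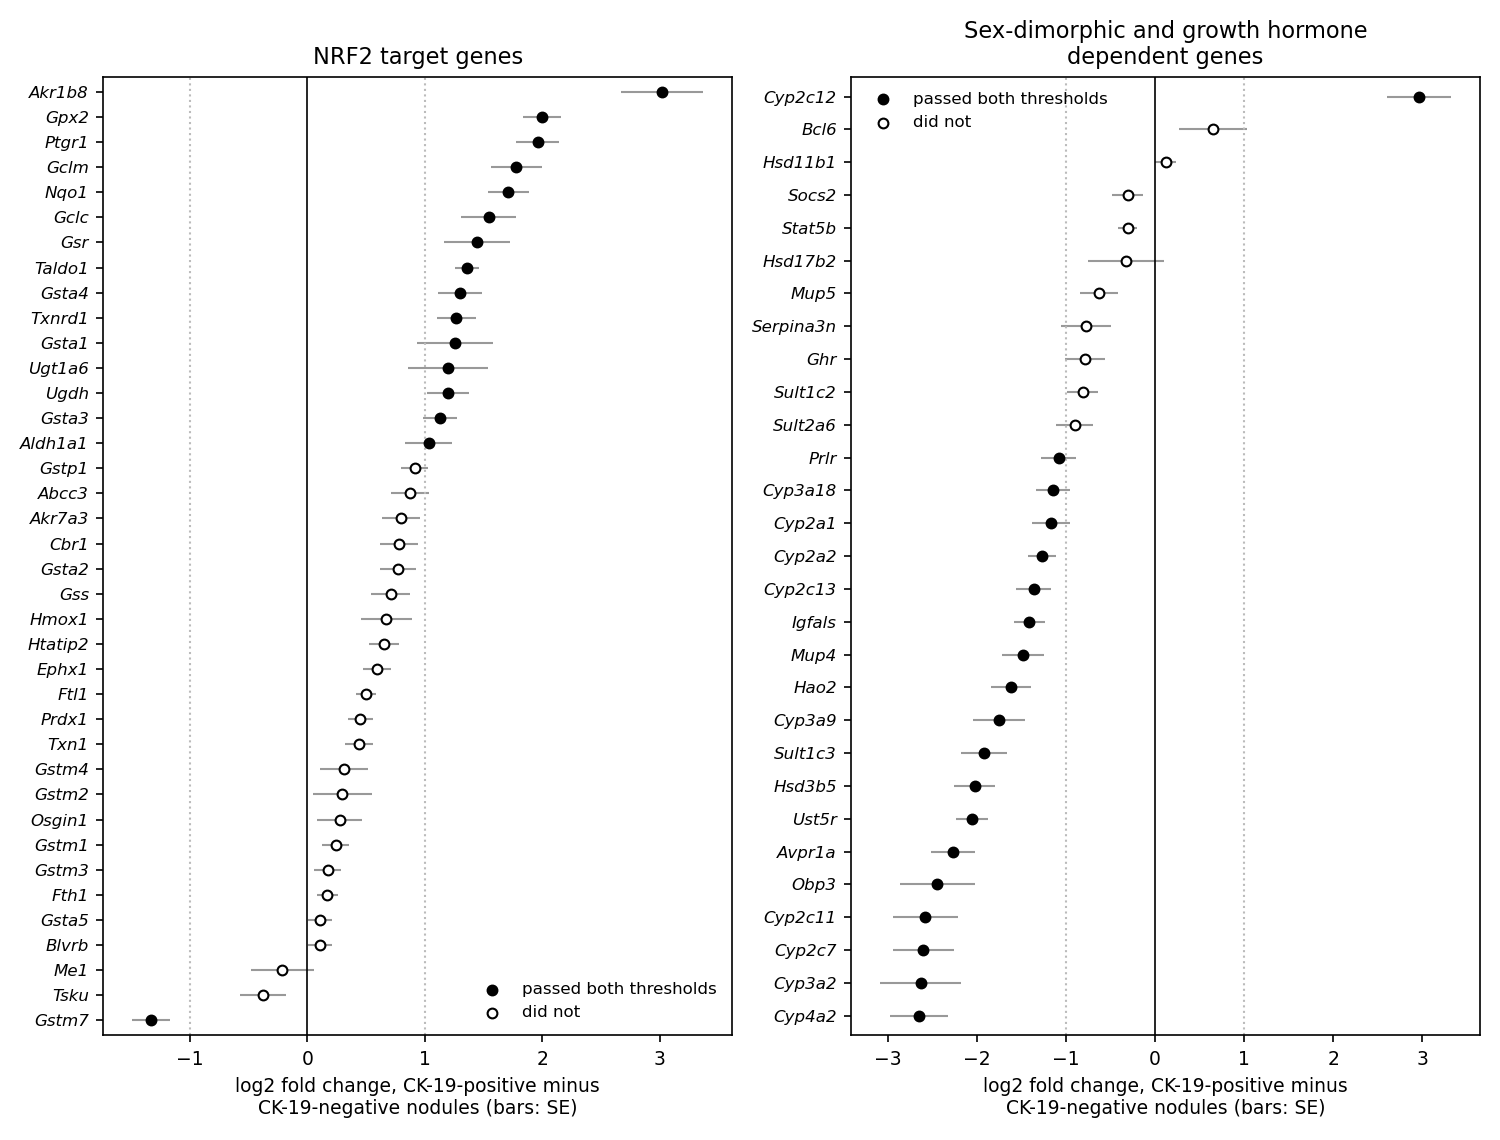
The log2 difference, CK-19-positive minus CK-19-negative nodules (horizontal axis, bars are SE), is plotted for each of the 38 NRF2 target genes and each of the 29 sex-biased or growth hormone dependent genes tested. Filled points passed both thresholds, 15 above and 1 below 0 among the NRF2 targets and 1 above and 18 below 0 in the other list.

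Detoxification families, which share members with the NRF2 targets, split by member. Akr1b8, Gsta1, Gsta3, Gsta4, Gstm7 and Ugt1a6 were called as NRF2 targets above and are counted again here. Among 16 aldo-keto reductases, 5 rose and 2 fell. Akr1c13 was 20694 to 32537 in CK-19-positive nodules and 5675 to 11986 in CK-19-negative nodules, and Akr1b1, aldose reductase, was 3011 to 4120 and 1012 to 1380 (3.14-fold and 2.82-fold), whereas Akr1c3 fell to 270 to 616 in CK-19-positive nodules, against 1085 to 1709 in CK-19-negative nodules (log2 -1.76). Of 19 glutathione S-transferases 4 rose and 1 fell, and of 9 glucuronosyltransferases 2 rose and 1 fell. Of 24 ABC transporters, Abcb1b and Abcg1, a sterol exporter, rose and Abcc6 fell. Of 4 carbonic anhydrases, Car2 rose, with 12234, 20161, 12982, 11387 and 10328 in CK-19-positive nodules and 3040, 5837, 3461, 1156 and 2790 in CK-19-negative nodules (log2 2.18 ± 0.29, adjusted p = 5.048e-06). Car2 was 279 to 514 in control liver, below all 10 nodules.

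Markers of bile duct and oval cells other than Krt19 moved in part. Of 31 listed genes 13 could be tested, and 3 rose and 1 fell, Krt19 among the 3. Cd24, a surface protein of progenitor cells, was 2832, 3293, 2738, 2233 and 3587 in CK-19-positive nodules, against 687, 896, 646, 233 and 541 in CK-19-negative nodules (log2 2.40 ± 0.26, adjusted p = 5.086e-07). Epcam, an epithelial adhesion protein of ducts and progenitors, was 3670, 2873, 2430, 2734 and 2231 in CK-19-positive nodules, against 1009, 1192, 821, 488 and 967 in CK-19-negative nodules (log2 1.68 ± 0.20, adjusted p = 1.637e-06). Neither overlapped, and both were lowest in negative nodule 4. Onecut1, which directs bile duct formation as well as hepatocyte genes, was the member that fell. Spp1, osteopontin of bile duct cells, was near the floor, at 153 to 230 in CK-19-positive nodules and 154 to 289 in CK-19-negative nodules (log2 -0.07, adjusted p = 0.8082). Prom1 (CD133) had a log2 difference of 0.29 (adjusted p = 0.186) and Sox4, a progenitor transcription factor, 0.88 (adjusted p = 0.0002546), and neither was called. Krt7, Krt23, Muc1 and Cldn4, further markers of bile duct cells, did not pass the filter on low signals. The share of stained cells in each nodule was not measured on these arrays, so a higher share of such cells and a higher level per cell cannot be told apart here.

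Of 5 fetal liver and stem cell genes tested, Cd24 and Ly6e, a surface antigen, rose. Afp, alpha-fetoprotein, was 613, 711, 1098, 907 and 610 in CK-19-positive nodules and 1154, 1480, 1474, 1371 and 1434 in CK-19-negative nodules. It was thus lower in every CK-19-positive nodule (log2 -0.85, adjusted p = 0.004511), although short of 2-fold.

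Of 51 genes of the cytoskeleton, the annexins and the S100 proteins tested, 11 rose and 0 fell, with a median log2 difference of 0.62. By adjusted p alone 36 were higher and 1 lower, beside 932 and 829 of all 6102 genes. Anxa2, an annexin that joins membranes to actin, was 2660, 2448, 1986, 2173 and 2466 in CK-19-positive nodules, against 343, 601, 412, 450 and 688 in CK-19-negative nodules (log2 2.27 ± 0.14, adjusted p = 1.029e-09). Tubb6, a beta-tubulin, was 2615, 3526, 2641, 1872 and 2286 in CK-19-positive nodules, against 372, 692, 489, 374 and 643 in CK-19-negative nodules (log2 2.35, adjusted p = 5.066e-09). Both were tight within each group. S100a11 was 6156, 2244, 3329, 4008 and 4833 in CK-19-positive nodules and 473, 979, 934, 492 and 753 in CK-19-negative nodules (log2 2.49). Anxa1, Anxa5, S100a6, Lgals3 (galectin-3), Tagln2 (an actin-binding transgelin) and Tuba1a (an alpha-tubulin) also rose, by log2 1.08 to 1.75. Vim, vimentin of mesenchymal cells, was 1211 to 2522 in CK-19-positive nodules and 684 to 1188 in CK-19-negative nodules (log2 0.90, adjusted p = 0.0008988) and was not called. Krt8, a keratin of all hepatocytes, was 16552 to 24092 and 10427 to 13159 (log2 0.78) and was not called either.

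Of 29 genes tested that differ by sex or depend on growth hormone, 18 fell and 1 rose, with a median log2 difference of -1.27, the lowest of the 43 gene lists. Mup4l3, of the family of urinary proteins that male liver secretes, was not in the list and had the largest fall of all genes. It fell to 256, 2094, 2091, 1859 and 663 in CK-19-positive nodules, against 2233, 9039, 19282, 17189 and 10363 in CK-19-negative nodules (log2 -3.12, adjusted p = 5.814e-05). It was 8.71-fold lower, and negative nodule 1 was nearer to the positive nodules than to the other negative ones. Cyp2c11, the main P450 of male rat liver, fell to 1087, 2083, 4269, 4224 and 1636 in CK-19-positive nodules, against 4269, 15967, 22156, 18672 and 17975 in CK-19-negative nodules (log2 -2.58, adjusted p = 1.276e-05), and again only negative nodule 1 met the positive range. Cyp3a2, a male-predominant P450, fell to 858, 3999, 4511, 9633 and 2200 in CK-19-positive nodules, against 17342, 22414, 22854, 19371 and 17424 in CK-19-negative nodules (6.20-fold lower). These 3 families hold closely related copies, and a probe may have read more than the gene it is named for.

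Other male-predominant genes fell with them. Cyp2c13 was 6747 to 13526 in CK-19-positive nodules and 22294 to 26901 in CK-19-negative nodules (log2 -1.36), and Cyp2a2 was 6075 to 12531 and 18818 to 22996 (log2 -1.27). Hsd3b5, a male form of a steroid dehydrogenase, was 788 to 2368 and 3165 to 6721 (log2 -2.03). The list did not split by sex bias. Cyp2c7, Cyp2a1, Cyp3a9 and Prlr (the prolactin receptor), which are higher in female rat liver, fell as well, while Cyp2c12, female-specific in the rat, rose. Cyp2c7 was 3776, 2368, 10994, 17007 and 4314 in CK-19-positive nodules, against 33686, 34210, 35878, 38696 and 37124 in CK-19-negative nodules (log2 -2.60). Ghr, the growth hormone receptor, had a log2 difference of -0.79 and was not called.

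Of 10 genes of the insulin-like growth factor (IGF) axis tested, 2 rose and 1 fell. Igfbp3, a binding protein that carries IGF in blood, rose, with 5175, 6090, 3545, 3789 and 3195 in CK-19-positive nodules and 713, 1672, 1656, 1228 and 1479 in CK-19-negative nodules (log2 1.71 ± 0.19, adjusted p = 7.526e-07). It was 294 to 399 in EPFs and 1127 to 1286 in control liver, so the positive nodules were above both. Igfbp1, another binding protein, rose (log2 1.33, adjusted p = 0.007168), and Igfals, the third partner of the circulating complex, fell to 374 to 589 in CK-19-positive nodules, against 954 to 1513 in CK-19-negative nodules (log2 -1.41, adjusted p = 2.493e-06).

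Of 44 cytochrome P450 genes, 16 fell and only Cyp2c12 rose, beside 2.39% of all genes each way. The median log2 difference was -0.61. The falls of Cyp2a1, Cyp2a2, Cyp2c7, Cyp2c11, Cyp2c13, Cyp3a2, Cyp3a9, Cyp3a18 and Cyp4a2 and the rise of Cyp2c12 were counted in the sex-biased list above. Those of Cyp7a1 and Cyp8b1 are counted again under bile acids below. Cyp4a2, a fatty acid hydroxylase, fell to 249, 377, 573, 879 and 521 in CK-19-positive nodules, against 2491, 7291, 2689, 3986 and 1243 in CK-19-negative nodules (6.29-fold lower), and Cyp1a2, which activates arylamines, fell to 397 to 1279, against 2724 to 3766 (log2 -2.19). Positive nodule 4 had the highest signal of the positive group for Cyp4a2, Cyp3a2, Cyp2c7 and Cyp1a2, and the lowest was that of positive nodule 1, or of positive nodule 2 for Cyp2c7.

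Bile acid synthesis and transport fell in 8 of 20 genes and rose in 0. Cyp8b1, the enzyme that sets the share of cholic acid, fell to 1286, 606, 1912, 2928 and 1038 in CK-19-positive nodules, against 9910, 8788, 8034, 4336 and 5462 in CK-19-negative nodules (log2 -2.37). Slc27a5 and Baat, which conjugate bile acids, fell (log2 -2.08 and -1.25), as did Slc10a1, the uptake transporter NTCP (log2 -1.06). Cyp7a1, the rate-limiting enzyme, was 1629 to 2897 in CK-19-positive nodules and 2307 to 7168 in CK-19-negative nodules, and its groups overlapped (log2 -1.13, adjusted p = 0.00627). Cyp27a1, of the alternative route, had a log2 difference of -0.19 (adjusted p = 0.3068). With BeadChip as a fixed block 6 genes of this list were called lower, and the cause of the lost calls was not tested.

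Genes of hepatocyte secretion and metabolism were among the falls. Of 74 genes of plasma proteins, complement and coagulation, 19 fell and 0 rose, among them Apoc2 (an apolipoprotein, log2 -1.87), Apoa5 (-1.71), C6 (complement component 6, -1.67) and C4bpb (a complement regulator, -1.66). Alb, albumin, was not among them (log2 0.24, adjusted p = 0.2497). Of 54 genes of the urea cycle and amino acid breakdown, 16 fell and 0 rose, and 9 were called lower with BeadChip as a fixed block and 10 without positive nodule 2. Oat, ornithine aminotransferase, fell to 893, 1105, 2190, 2037 and 926 in CK-19-positive nodules, against 4380, 5190, 9261, 5248 and 5519 in CK-19-negative nodules (log2 -2.11). G6pc1, glucose 6-phosphatase, which releases glucose, fell to 1105, 964, 1504, 2900 and 1677 in CK-19-positive nodules, against 9096, 9019, 6414, 11129 and 7494 in CK-19-negative nodules (log2 -2.49, adjusted p = 3.337e-07). Pck1, an enzyme of gluconeogenesis, fell by 1.53 on the log2 scale. G6pc1 and Pck1 were 2 of the 4 falls among 32 genes of glycolysis, gluconeogenesis and glycogen. Of 44 genes of fatty acid oxidation, 9 fell and Cd36, a fatty acid transporter, rose (log2 1.09), though Cd36 was not called without positive nodule 1 or 2 (log2 0.98 in both). Slc25a25, a mitochondrial ATP-Mg carrier, fell (log2 -2.53), while Slc25a4, an ADP/ATP carrier of muscle and heart, rose, at 3804 to 7124 in CK-19-positive nodules and 669 to 1818 in CK-19-negative nodules.

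Among 18 transcription factors of hepatocytes, 4 fell and 0 rose. Onecut1 (HNF6) fell to 507, 646, 669, 796 and 415 in CK-19-positive nodules, against 2259, 1505, 5453, 4495 and 4212 in CK-19-negative nodules (log2 -2.45). Creb3l3, Atf5 and Klf15, which drive genes of fasting and lipid and amino acid metabolism, fell (log2 -1.25, -1.22 and -1.05). Nr1h4, the bile acid receptor FXR, stayed just short of 2-fold, at 386 to 562 in CK-19-positive nodules and 828 to 1099 in CK-19-negative nodules (log2 -0.99, adjusted p = 3.337e-07) and was not called. Hnf4a, the central regulator of hepatocyte genes, had a log2 difference of -0.21 (adjusted p = 0.1546). Of 28 genes of the pericentral and periportal zones 8 fell and 1 rose.

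Of 51 genes of the cell cycle and DNA replication only Ccnb2, the mitotic cyclin B2, rose, with 697, 1581, 558, 943 and 968 in CK-19-positive nodules and 433, 518, 368, 387 and 496 in CK-19-negative nodules (log2 1.03), and it was 1206 to 2169 in EPFs. Its call was lost without negative nodule 3 or 4 or positive nodule 2 or 5, when its log2 difference was 0.97, 0.99, 0.82 and 1.00, and with BeadChip as a fixed block (0.73). By adjusted p alone 18 of the 51 were higher and 1 lower, beside 932 and 829 of all 6102. The share of the list called higher was 1.96%, beside 2.39% of all genes, but the 2 shares are not alike. Only 42 of the 51 exceeded 200 in any nodule, against 6041 of all 6102 genes. The rest passed the filter through EPFs or control liver. Of 36 genes of the p53 response and apoptosis 1 rose and 1 fell, 2.78% each way, which was near the 2.39% of all genes. The one that fell, Gadd45g, a growth arrest gene, was 336 to 794 in CK-19-positive nodules and 398 to 2734 in CK-19-negative nodules, and its groups overlapped (limma adjusted p = 0.02167, exact permutation p = 0.07143, two-sided). Negative nodule 1 was its highest value, without which its log2 difference was -0.71 (adjusted p = 0.0758). Genes of ribosomal proteins, the proteasome and oxidative phosphorylation were called in 0 of 56, 0 of 35 and 0 of 54 cases. Yet 19 of the 56 ribosomal protein genes were higher by adjusted p alone, beside 932 of all 6102 genes.

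Markers of other cells of the liver were also higher in part. Of 21 macrophage and Kupffer cell markers, 2 rose, Cd74 and Fcer1g, and 11 were higher by adjusted p alone, beside 932 of all 6102. Neither was called without negative nodule 1. The summed signal of the 21 markers, Cd74 included, was 27679 to 39218 in CK-19-positive nodules, 19151 to 24514 in CK-19-negative nodules and 24102 to 39200 in control liver. The defining markers of resident macrophages did not all follow. Marco had a log2 difference of -0.52 (adjusted p = 0.05315), Vsig4 0.08 (adjusted p = 0.8418) and Cd163 0.36 (adjusted p = 0.04364). Of 25 stellate cell and fibroblast markers, 4 rose (Mgp, Timp1, Col1a2 and Reln), with summed signals of 33671 to 43909 in CK-19-positive nodules, 27517 to 38732 in CK-19-negative nodules and 29009 to 35941 in control liver. Mgp, a matrix protein that binds calcium, was 4921, 2303, 3622, 2524 and 2853 in CK-19-positive nodules, against 540, 1035, 1370, 758 and 1339 in CK-19-negative nodules (log2 1.71). Des, desmin of stellate cells, was level (log2 -0.08, adjusted p = 0.6919). Endothelial and lymphocyte markers were called in 0 of 16 and 0 of 13 cases. By adjusted p alone, 14 of the 25 stellate cell and fibroblast markers were higher and 1 lower. Of the 13 lymphocyte markers 4 were higher and 0 lower, and of the 16 endothelial markers 1 was higher and 2 lower. Of all 6102 genes 932 were higher and 829 lower by that rule. In these samples of many cells each, more cells of a type and more RNA per cell cannot be told apart. The part of these cells in the other differences was not tested.

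Of 25 antigen presentation genes 5 rose and 0 fell, and 17 were higher by adjusted p alone, beside 932 of all 6102 genes. RT1-Db1, a class II chain, was 1533, 2685, 1516, 1515 and 2756 in CK-19-positive nodules, against 613, 915, 552, 921 and 483 in CK-19-negative nodules (log2 1.51, adjusted p = 0.0001307). Cd74, the invariant chain of class II molecules, was 3114, 3162, 3086, 2626 and 4643 in CK-19-positive nodules, against 911, 1539, 1453, 2049 and 1737 in CK-19-negative nodules (log2 1.14, adjusted p = 0.004037). The class II genes are also macrophage genes. The higher macrophage sum given above counts Cd74 itself, so it is not a separate measure from their rise. The part of macrophages in that rise was not tested. With BeadChip as a fixed block 1 of these genes was called higher, and within BeadChip 1 there were 2. Without negative nodule 1, in which Cd74 was lowest, 1 was called higher, and without positive nodule 5 there were 3.

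Single members of further lists changed. Among 26 genes of metallothioneins, heme and iron, Tspo (a cholesterol-binding protein of the mitochondrial outer membrane), Slc39a4 (a zinc importer) and Slc40a1 (the iron exporter ferroportin) rose and 0 fell. Tspo was 3596, 4699, 3701, 4643 and 3287 in CK-19-positive nodules, against 781, 899, 787, 859 and 1461 in CK-19-negative nodules (log2 2.09 ± 0.15, adjusted p = 3.186e-09). Among 20 lipogenesis genes Scd2 (a desaturase) rose, while Dgat2 (the last step of triglyceride synthesis) and Srebf1 (the transcription factor of lipogenesis) fell. Srebf1 was 1630 to 2624 in CK-19-positive nodules and 3383 to 5762 in CK-19-negative nodules (log2 -1.15), and it was not called with BeadChip as a fixed block (log2 -0.85, adjusted p = 0.0788). Of 35 adhesion genes Epcam rose and Cdh17, a cadherin, fell, 2.86% each way, which was near the 2.39% of all genes. Cdh17 overlapped between the groups, at 261 to 457 in CK-19-positive nodules and 197 to 1308 in CK-19-negative nodules (log2 -1.18, limma adjusted p = 0.009524), where it was lowest in negative nodule 1.

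**Figure D4:**
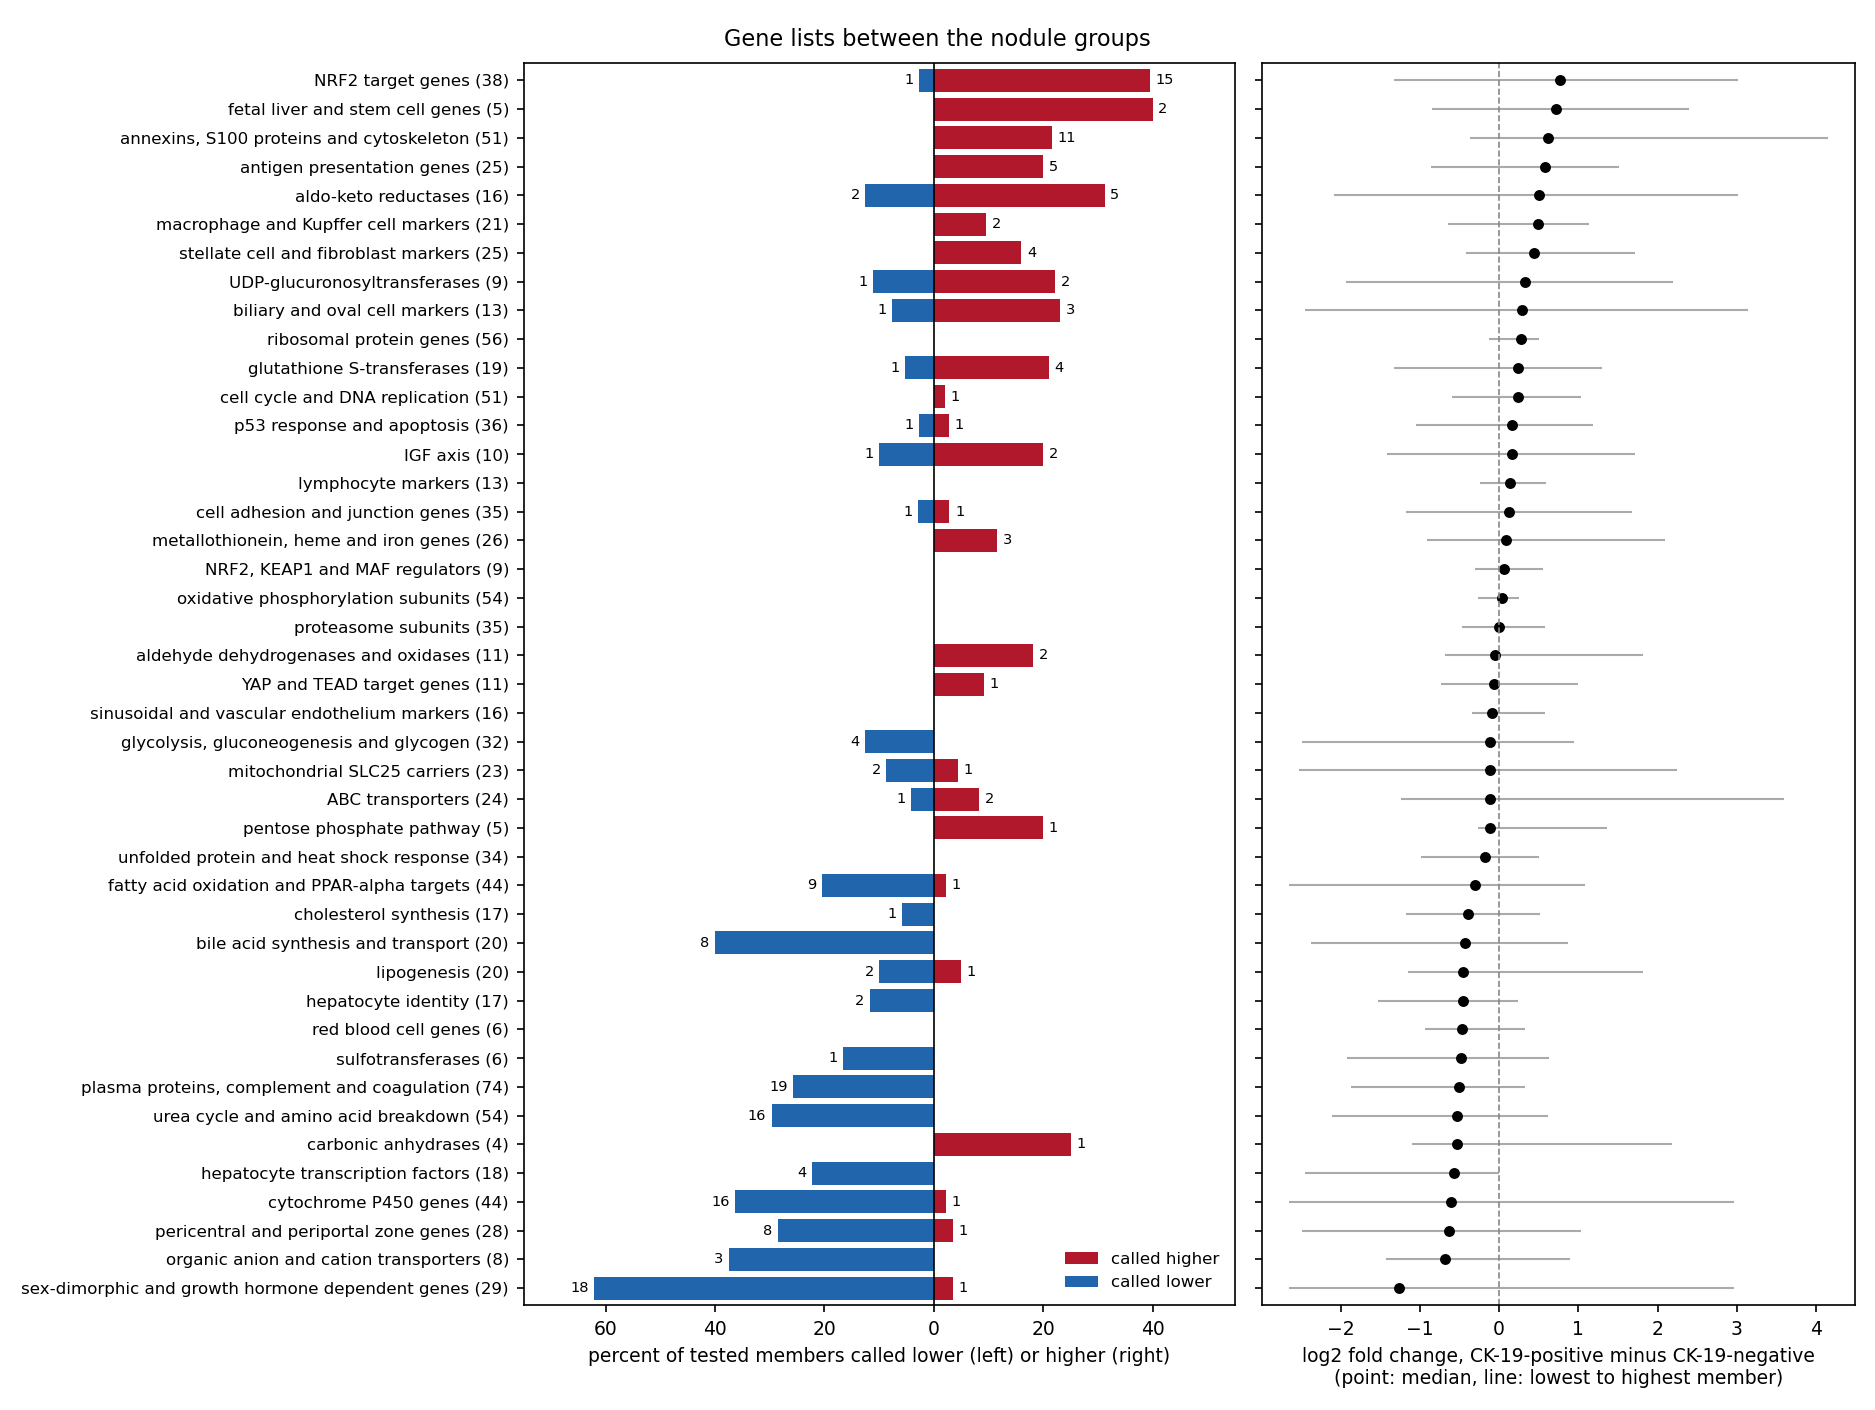
The left panel plots the percent of the tested members of each gene list that were called lower (to the left) or higher (to the right) in CK-19-positive nodules, with the number of genes at each bar and the number tested in parentheses, and the right panel plots the median log2 difference (point) and the lowest to highest member (line). NRF2 targets have 15 called higher of 38 and sex-dimorphic genes have 18 called lower of 29, at opposite ends of the order by median.

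The median SD of the log2 signal over all genes was 0.166 in CK-19-positive nodules, against 0.193 in CK-19-negative nodules, beside 0.192 in control liver. All 5 positive nodules shared BeadChip 1, while the negative nodules and the controls were spread over several. Spread between nodules and spread between BeadChips cannot be told apart in these SDs. Among the negative nodules the order differed by gene. Negative nodules 1 and 4 were lowest for Defb1, Abcb1b, Krt19 and Cyp2c12, and negative nodule 2 was the highest for Abcb1b, Krt19, Akr1b8 and Cyp2c12 without reaching any positive nodule.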

How the data were processed

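RNA of laser-microdissected lesions was hybridized to 20 one-colour Illumina RatRef-12 arrays, and per the labels the intensities were read out with BeadStudio 3.0.19.0. The authors deposited linear intensities after quantile normalization, used as given. A further 40 columns, which match no sample by name, were not used. Of 22523 probes 13793 had 1 gene, 0 had several and 8730 were not named, and the brightest probe over all arrays stood for each of 13337 genes. In 6 called genes a second probe was tested, and its sign was the same in 6, of which 3 were called. The 6102 genes that exceeded 200 on 5 or more of the 20 arrays were tested, as log2 signals of all 20 arrays in 1 fit (limma 3.58.1 in R 4.3.3, eBayes, Benjamini-Hochberg over all genes). Where a group lay under 200 on every array, its fold is a bound taken at 200. Named genes were the 12 largest rises and falls without overlap, the largest called rise and fall of each gene list, and Krt19 (57 in all), and any other gene was named after its values were seen. The members and lists were chosen with earlier results of these data known. Some genes are in more than 1 list, so the counts of such lists are not separate results. On simulated data for this comparison (6102 genes), 95% of 2-fold and 100% of 4-fold changes were recovered by adjusted p, with 4.88% false calls. The 2-fold threshold was not applied there, and the simulated arrays held no BeadChip effect and no shared rats. These shares therefore do not carry over to the calls above. Alternatives were other filters, offsets, sample sets, BeadChip blocks, a t-test and leaving out each array, as the closing section gives. The number of arrays limits the precision. An exact permutation test of 5 against 5 arrays cannot go below p = 0.007937.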

Additional observations from a re-analysis of the deposited data

Results flagged for a closer look

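Among the 57 named genes, taken in each of the 2 nodule groups, 10 of 114 sets of 5 arrays held a value set apart from the other 4 (a gap to its neighbour of more than 0.71 of the whole range). Chance gives about 1 in 20 for normally distributed values. Every one of the 10 lay on the high side. The gaps were taken on linear signals, a scale that spreads high values more than log2 does. Neither the count nor the side can therefore be read as a trait of the nodules.

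CK-19-positive nodule 1 stood apart for Krt19 (7685.6), Pla2g7 (4263.0) and Scd2, a fatty acid desaturase (2691.6). CK-19-positive nodule 2 stood apart for Car2 (20161.3) and for Ugt2b7, a glucuronosyltransferase (2819.9), and CK-19-positive nodule 5 for Cd74 (4642.5). Among the CK-19-negative nodules, nodule 2 stood apart for Nefl (406.8) and for Slco1b2, a hepatocyte uptake transporter (11152.9), nodule 3 for Oat (9260.8), and nodule 5 for Tspo, a mitochondrial outer membrane protein (1461.5). For all 10 of these genes the nodule groups did not overlap with these values included.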

How the results depend on the processing

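The 292 calls (146 higher, 146 lower in CK-19-positive nodules) became 565 (326 and 239) after background subtraction and 1761 (932 and 829) with no fold threshold. The other settings gave totals within 1.5 times the 292. They were 260 with BeadChip as a fixed block (215 shared, 77 lost, 45 gained), 242 within BeadChip 1 (165 shared, 127 lost, 77 gained), 281 with BeadChip as a random block (275 shared), 264 under the study's filter, and 253 (without positive nodule 2) to 321 (without positive nodule 3) with 1 nodule left out, when 132 to 157 were higher and 121 to 167 lower. Using every probe gave 351. The log2 difference of Krt19, 3.14, was 2.86 to 3.87 under the alternatives. No result changed its sign, though a gene without overlap between the nodule groups could not do so within BeadChip 1 or with 1 nodule left out.

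Of the named genes, Abcc6, Aldh1a1, Aldh3a1, Ccn2, Ccnb2, Cd74, Cdh17, Cidea, Gadd45g and Srebf1 were not called with BeadChip as a fixed block, and the cause was not tested. Cdh17 was not called without negative nodule 2 or 3, Gadd45g without negative nodule 1 or 3 or positive nodule 1 or 3, and Ccn2 without negative nodule 1 or 4 or positive nodule 1 or 5. Normalization from the intensities before normalization was not run, as their columns match no sample. Signals near 200 limit the dim genes, of which 5 that rose lay under 200 in every CK-19-negative nodule.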

Other observations

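Of the 292 called genes, 135 (85 higher, 50 lower) were in none of the 43 gene lists. The genes named here were chosen after their values were seen. Mmp12, an elastase of macrophages, was 555 to 2252 in CK-19-positive nodules and 140 to 543 in CK-19-negative nodules (log2 2.01). Serpinb1a, an inhibitor of neutrophil proteases, was 527 to 1628 and 150 to 387 (log2 2.04), Slpi, a secreted leukocyte protease inhibitor, 2438 to 4848 and 623 to 1565 (2.83-fold), and Lgmn, the lysosomal protease legumain, 2600 to 5580 and 767 to 1536 (log2 1.84). Gdf15, a stress-induced cytokine, was 483 to 800 in CK-19-positive nodules and 136 to 271 in CK-19-negative nodules (log2 1.47), and Cxcl16, a chemokine, 1319 to 1956 and 324 to 606 (log2 1.77). None of these 6 genes overlapped between the groups.

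Fabp4, a fatty acid binding protein of fat and endothelium, was 795 to 1220 in CK-19-positive nodules and 288 to 569 in CK-19-negative nodules (log2 1.31), while Lpl, lipoprotein lipase, was 1000 to 1732 and 331 to 1088 and overlapped in negative nodule 2 (log2 1.44). Among the genes that fell, Fgl1, a secreted hepatokine, was 303 to 1495 in CK-19-positive nodules and 1720 to 4650 in CK-19-negative nodules (log2 -2.11), Leap2, a liver peptide hormone, 1292 to 5580 and 8646 to 12260 (log2 -1.83), and Egf, epidermal growth factor, 235 to 320 and 587 to 686 (log2 -1.11). Dusp1, a phosphatase of MAP kinases, was even among the CK-19-positive nodules, at 1703 to 2214, and spread over 1466 to 10027 among the CK-19-negative nodules (log2 -1.42, adjusted p = 0.008015 by limma).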
